A study of Homo sapiens with 6 samples.

Results

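The TGF-beta pathway genes described here are 9 genes, out of 63677 identifiers in each count table, that were listed by symbol and found by their Ensembl identifiers. They are the extracellular matrix gene TGFBI, the ligands TGFB1 and TGFB2, the receptors TGFBR1 and TGFBR2, and the signal transducers SMAD2, SMAD3, SMAD4 and SMAD7. All 9 were found and all 9 passed the filter on low counts, which left 14286 genes to be tested. A further 113 genes, on 8 lists of ligands, receptors, modulators, targets and partners, were read beside them.

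RNA with poly(A) tails was sequenced by a strand-specific protocol from SW480 cells, an established human colorectal adenocarcinoma line, to ask what POU5F1B overexpression does to transcript levels. POU5F1B is a retrogene copy of POU5F1, the gene of the pluripotency factor OCT4. The cells had received a lentiviral vector with a doxycycline-inducible promoter in front of either POU5F1B or green fluorescent protein (GFP), and both groups, controls included, were kept in 1 µg/mL doxycycline for 72 h. There were 3 libraries in each of the 2 groups, numbered as replicates 1, 2 and 3. The transgenes carried an HA tag and transduced cells were selected with puromycin, so each group is a selected pool of 1 line. No label says that the libraries came from separate cultures, so p-values measure the spread between these samples only, which may be technical. These are bulk libraries, in which fewer cells of a kind and less RNA per cell cannot be told apart.

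The libraries held 10767947 to 12787637 counts. POU5F1B had 1 to 6 counts in the GFP libraries and 1458 to 15027 in the POU5F1B libraries, with the lowest of these, 121 CPM (counts divided by the scaled total of the library), in replicate 3 against 1060 and 1180 CPM in replicates 2 and 1. GFP replicate 3 stood apart from its group: its counts differed from those of GFP replicates 1 and 2 with a chi-square of 89.5 and 78.7 per degree of freedom, against 4.21 between replicates 1 and 2. POU5F1B replicate 3 also differed from its group, by less, with 17.5 and 20.9 per degree of freedom against 5.38. For this reason the members and the other genes named for their differences are given for all 6 libraries and for replicates 1 and 2 only. KRT8, KRT18 and EPCAM, markers of epithelium, were detected in every library, and the 12 epithelial markers summed to 6370 to 9610 CPM in GFP and 7910 to 8940 CPM with POU5F1B. KRT8 and KRT18 made up most of this sum, and other markers on the list varied. EPCAM had 86.8, 89.4 and 519 CPM in GFP replicates 1, 2 and 3 and 252 to 331 CPM in the POU5F1B libraries, and VIL1 had 23.1, 14.0 and 211 CPM against 42.7, 37.6 and 111 CPM. CDH1 had 30.2 to 72.7 CPM in GFP and 98.3 to 164 CPM in POU5F1B libraries. LGR5 and CDH17 were below 0.1 CPM except in replicate 3, with 20.8 and 6.7 CPM in GFP and 6.58 and 2.0 CPM in POU5F1B cells. The part of these differences between libraries in the results was not tested. CDX1 and CEACAM5, also on that list, had at most 3 counts in any library. Macrophage and other leukocyte markers summed to at most 1.68 CPM, and CD68, CD163 and MS4A1 had 0 counts throughout.

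TGF-beta ligands are secreted in a latent form and, once released, bring together type II (TGFBR2) and type I (TGFBR1) receptor kinases, which phosphorylate SMAD2 and SMAD3. These join SMAD4 and enter the nucleus, where they act on target genes, among them the inhibitory SMAD7, which feeds back on the receptor. TGFBI, named for its induction by TGF-beta, encodes a secreted protein with fasciclin domains that binds collagens and integrins. In colon epithelium the pathway is best known as a brake on growth that colorectal cancers often lose, and SW480 is known as a SMAD4-deficient line.

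The promoters of TGFBI and TGFB2 are shown because these were the 2 members that differed most between the groups. Each sequence is the 250 bases before the RefSeq start of the gene, matched to 1 place at the locus of that gene on GRCh37. The rest of the genome was not searched for it. The capitals mark every match, on either strand, to the motifs searched for. TGFBI is at chr5:135364427-135364676 and TGFB2 at chr1:218518428-218518677, both on the plus strand.
TGFBI: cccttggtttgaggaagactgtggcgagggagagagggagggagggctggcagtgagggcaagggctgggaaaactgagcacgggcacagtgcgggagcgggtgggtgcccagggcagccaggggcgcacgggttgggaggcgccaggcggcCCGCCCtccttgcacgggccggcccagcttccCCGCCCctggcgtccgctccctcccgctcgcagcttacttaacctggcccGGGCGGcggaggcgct
TGFB2: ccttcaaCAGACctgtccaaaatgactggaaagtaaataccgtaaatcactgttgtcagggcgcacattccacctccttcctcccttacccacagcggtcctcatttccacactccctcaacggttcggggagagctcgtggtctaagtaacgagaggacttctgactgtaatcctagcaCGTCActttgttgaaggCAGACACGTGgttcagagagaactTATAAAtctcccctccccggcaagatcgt
The motifs were the octamer ATGCAAAT bound by POU factors, the SMAD box CAGAC, the AP-1 site TGANTCA, the cyclic AMP response element TGACGTCA and its shorter part TGACG, the E-box CACGTG, the TATA box TATAAA and the SP1 site GGGCGG. They were chosen after the results were known. In the TGFBI promoter GGGCGG matched with its first base at -98, -66 and -16 from the start, and no other motif matched. In the TGFB2 promoter CAGAC matched at -243 and -53, TGACG at -70, CACGTG at -49, where it shares 1 base with the second CAGAC, and TATAAA at -29. The bases were 72.8% G or C in the TGFBI and 50.4% in the TGFB2 promoter. Over 35116 RefSeq promoter windows of 300 bases, 45% held GGGCGG, 45.3% CAGAC, 24.6% TGACG, 11.5% TATAAA, 7.71% TGANTCA, 7.26% CACGTG, 1.85% TGACGTCA and 1.77% ATGCAAAT. A match is a description of the letters and says nothing of binding.

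TGFBI (ENSG00000120708) is a plus-strand gene of chromosome 5, from 135364677 to 135399507 on GRCh37. It was about 3 times higher in POU5F1B than in GFP cells. Its counts were 1198, 1180 and 921 in GFP replicates 1, 2 and 3, and 3950, 3348 and 2538 in POU5F1B replicates 1, 2 and 3. This is 101, 89.9 and 80.1 CPM against 311, 310 and 211 CPM. The groups did not overlap, and the lowest POU5F1B library, replicate 3, was still above every GFP library. Averaged over 3 libraries, GFP cells had 90.3 ± 10.4 CPM (SD, n = 3) and POU5F1B cells 277 ± 57.3 CPM (SD, n = 3). The log2 fold change was 1.60 ± 0.19 (SE), with a 95% interval of 1.15 to 2.05, a 3.03-fold difference. Within replicate numbers 1, 2 and 3 the log2 difference was 1.62, 1.79 and 1.40, so TGFBI was higher in 3 of 3. Ranked by its unadjusted limma voom p-value it was number 8 of the 14286 tested genes, but after Benjamini-Hochberg adjustment over all genes it did not pass the threshold of an adjusted p under 0.05 and a 2-fold change (limma voom with Benjamini-Hochberg adjustment, adjusted p = 0.132). In replicates 1 and 2 only it did pass, with a log2 fold change of 1.69 (voom adjusted p = 4.97e-08).

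**Figure D1:**
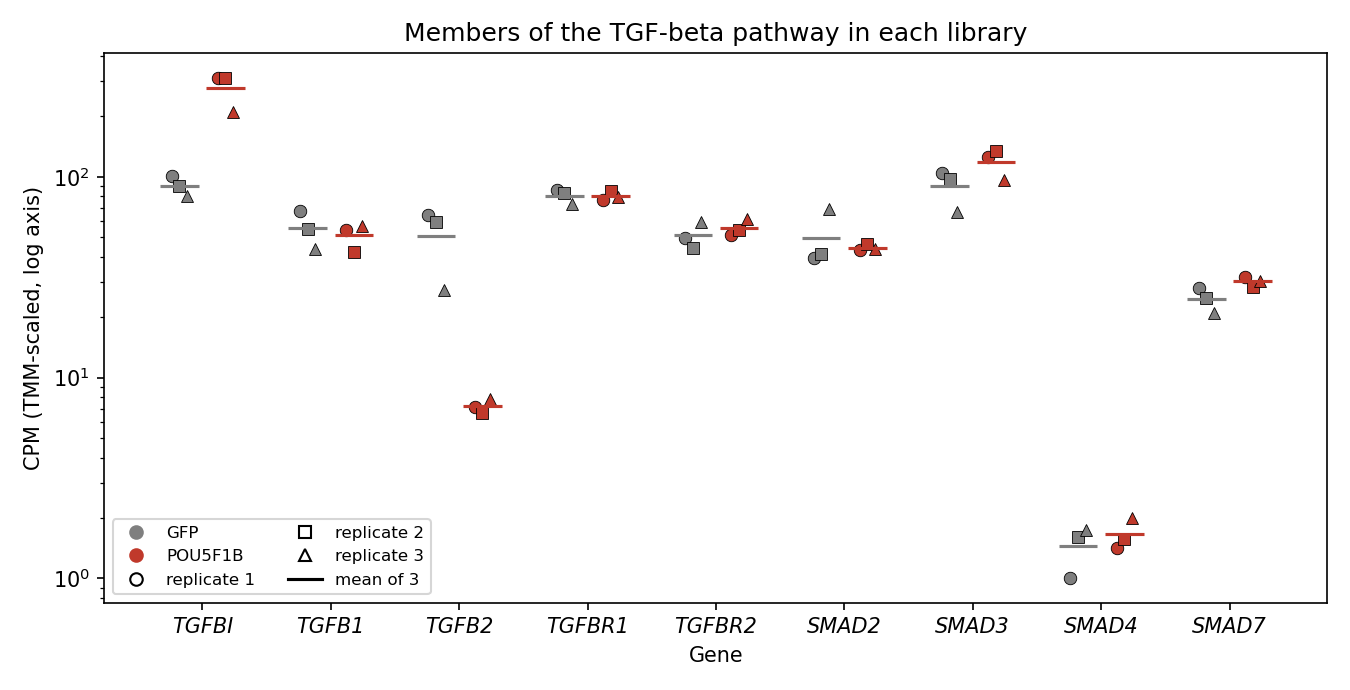
CPM of each member on a log axis in the 3 GFP (grey) and 3 POU5F1B (red) libraries, with a symbol for each replicate number and a bar at the mean of 3. TGFBI lies at 80.1 to 101 CPM in GFP and 211 to 311 CPM in POU5F1B libraries, TGFB2 at 27.3 to 64.5 against 6.67 to 7.83 CPM, and SMAD4 at no more than 2.0 CPM in any library.

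Of the ligands, TGFB2 was lower in POU5F1B cells and TGFB1 lay at like levels in both groups. TGFB2 (ENSG00000092969; chromosome 1, 218518678 to 218617961, plus strand) had 765, 783 and 314 counts in GFP replicates 1, 2 and 3, and 91, 72 and 94 in the POU5F1B libraries. On the CPM scale these were 64.5, 59.7 and 27.3 against 7.16, 6.67 and 7.83. The POU5F1B libraries lay close together and below every GFP library, among which replicate 3 was the lowest. The means were 50.5 ± 20.2 CPM and 7.22 ± 0.579 CPM (SD, n = 3), and the log2 fold change was -2.71 ± 0.43 (SE; 95% interval -3.75 to -1.68), a 6.55-fold difference. The log2 difference was -3.14, -3.13 and -1.78 within replicate numbers 1, 2 and 3, lower in 3 of 3. TGFB2 was number 29 of the tested genes in the same ranking. It did not pass the threshold over all libraries (voom adjusted p = 0.185). In replicates 1 and 2 only it passed, at -3.17 (voom adjusted p = 7.73e-08). Its exons overlap those of the antisense gene TGFB2-AS1 over 701 bases. TGFB2-AS1, with 17, 19 and 6 counts in GFP replicates 1, 2 and 3 and 1, 1 and 7 in POU5F1B replicates 1, 2 and 3, was too low to be tested. The strand setting of the counting is not given in the sources used here, so reads of the shared bases could not be told apart, although the antisense counts were far below those of TGFB2.

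TGFB1 (ENSG00000105329; chromosome 19, 41807492 to 41859827, minus strand), the most widely made of the ligands, had 67.6, 54.9 and 44 CPM in GFP replicates 1, 2 and 3 and 54.5, 42.2 and 57.1 CPM in the POU5F1B libraries. The groups overlapped. The log2 fold change was -0.10 ± 0.20 (SE; 95% interval -0.58 to 0.38; voom adjusted p = 0.876), and the sign differed between replicate numbers, at -0.31, -0.38 and 0.37. It was -0.34 in replicates 1 and 2 only (voom adjusted p = 0.0863). An interval of this width leaves room for a change of either sign. The exons of TGFB1 share 215 bases with HNRNPUL1, which runs on the opposite strand and had 3639 to 5366 counts per library. TGFB1 counts, 455 to 802 per library, are uncertain to that extent.

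Both receptors, the kinases that carry the signal across the membrane, had overlapping groups. TGFBR1 (ENSG00000106799; chromosome 9, 101866320 to 101916474, plus strand), the type I receptor, had 85.6, 82.7 and 73.5 CPM in GFP and 77.1, 85.3 and 79.1 CPM in POU5F1B replicates 1, 2 and 3. Its log2 fold change was 0.00 ± 0.12 (SE; voom adjusted p = 0.995), the value nearest to 0 among the members, and its 95% interval of -0.28 to 0.27 leaves out a 2-fold change. TGFBR2 (ENSG00000163513; chromosome 3, 30648093 to 30735634, plus strand), the type II receptor that binds the ligand first, had 49.8, 44.3 and 59.4 CPM in GFP and 51.2, 54.7 and 61.4 CPM with POU5F1B. It was higher in 3 of 3 replicate numbers, by 0.04, 0.30 and 0.05, and the fit gave 0.13 ± 0.16 (SE; 95% interval -0.23 to 0.50; voom adjusted p = 0.764). This difference is within the spread between libraries. Without the replicate 3 libraries the log2 fold change was -0.07 for TGFBR1 and 0.16 for TGFBR2 (voom adjusted p = 0.626 and 0.308).

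The receptor-regulated SMAD2 and SMAD3 gave values of opposite sign, neither past the threshold. SMAD2 (ENSG00000175387; chromosome 18, 45335328 to 45457517, minus strand) had 39.6, 41.2 and 69.0 CPM in GFP replicates 1, 2 and 3 and 43.2, 46.3 and 43.9 CPM in the POU5F1B libraries. GFP replicate 3 alone stood high, and the other 5 libraries lay between 39.6 and 46.3 CPM. The log2 fold change was -0.11 ± 0.23 (SE; voom adjusted p = 0.876) over all libraries and 0.13 in replicates 1 and 2 only (voom adjusted p = 0.412), so its sign rests on GFP replicate 3. SMAD3 (ENSG00000166949; chromosome 15, 67356101 to 67487511, plus strand) had 105, 98.1 and 66.7 CPM in GFP and 126, 134 and 96.2 CPM with POU5F1B. It was higher in 3 of 3 replicate numbers, by 0.26, 0.46 and 0.53, but replicate 3 was the lowest library of both groups, and the groups overlapped. The log2 fold change was 0.41 ± 0.21 (SE; 95% interval -0.10 to 0.92; voom adjusted p = 0.501). In replicates 1 and 2 only it was 0.34, with an adjusted p under 0.05 but short of 2-fold (voom adjusted p = 0.0123).

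SMAD4 (ENSG00000141646; chromosome 18, 48554898 to 48611415, plus strand), the common partner that SMAD2 and SMAD3 need, was the lowest of the members in every library, also per kilobase of length. It had 12, 21 and 20 counts in GFP and 18, 17 and 24 counts in POU5F1B replicates 1, 2 and 3, or 1.01 to 1.74 and 1.42 to 2.0 CPM. The groups overlapped at this low level, and the log2 fold change of 0.21 ± 0.34 (SE) had a 95% interval of -0.59 to 1.01 (voom adjusted p = 0.837), which does not leave out a 2-fold rise. It was 0.2 in replicates 1 and 2 only (voom adjusted p = 0.746). The exons of SMAD4 share 967 bases with ENSG00000267699 on the same strand, which had 0 counts in all 6 libraries. How reads in the shared bases were assigned is not given in the sources used here.

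SMAD7 (ENSG00000101665; chromosome 18, 46446223 to 46477335, minus strand), the inhibitory SMAD, had 28.1, 24.8 and 20.9 CPM in GFP and 31.9, 28.4 and 30.4 CPM in POU5F1B replicates 1, 2 and 3. The groups did not overlap, although the gap between GFP replicate 1 and POU5F1B replicate 2 was small. The log2 difference was 0.19, 0.19 and 0.54 within the replicate numbers, higher in 3 of 3. The fit gave 0.31 ± 0.16 (SE; 95% interval -0.08 to 0.69), which did not pass the threshold (voom adjusted p = 0.503), nor did the 0.19 of replicates 1 and 2 only (voom adjusted p = 0.333).

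With limma voom over all libraries 0 of the 9 members passed the threshold, as did 0% of all tested genes. With edgeR 0 members passed and with DESeq2 2, TGFBI and TGFB2. At an unadjusted p under 0.05 TGFBI was higher and TGFB2 lower, 1 member in each direction, against 6.07% of all tested genes higher and 5.82% lower. TGFBI and SMAD7 did not overlap between the groups in the higher direction and TGFB2 did not in the lower, where 10.2% and 9.24% of all tested genes did the same. In replicates 1 and 2 only TGFBI passed as higher and TGFB2 as lower, against 3.21% and 5.15% of all tested genes. With 3 libraries against 3, the exact two-sided permutation test cannot go below p = 0.1, and it gave that value for TGFBI, TGFB2 and SMAD7 (exact permutation p = 0.1 each) and 0.3 to 1.0 for the other 6 members.

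**Figure D2:**
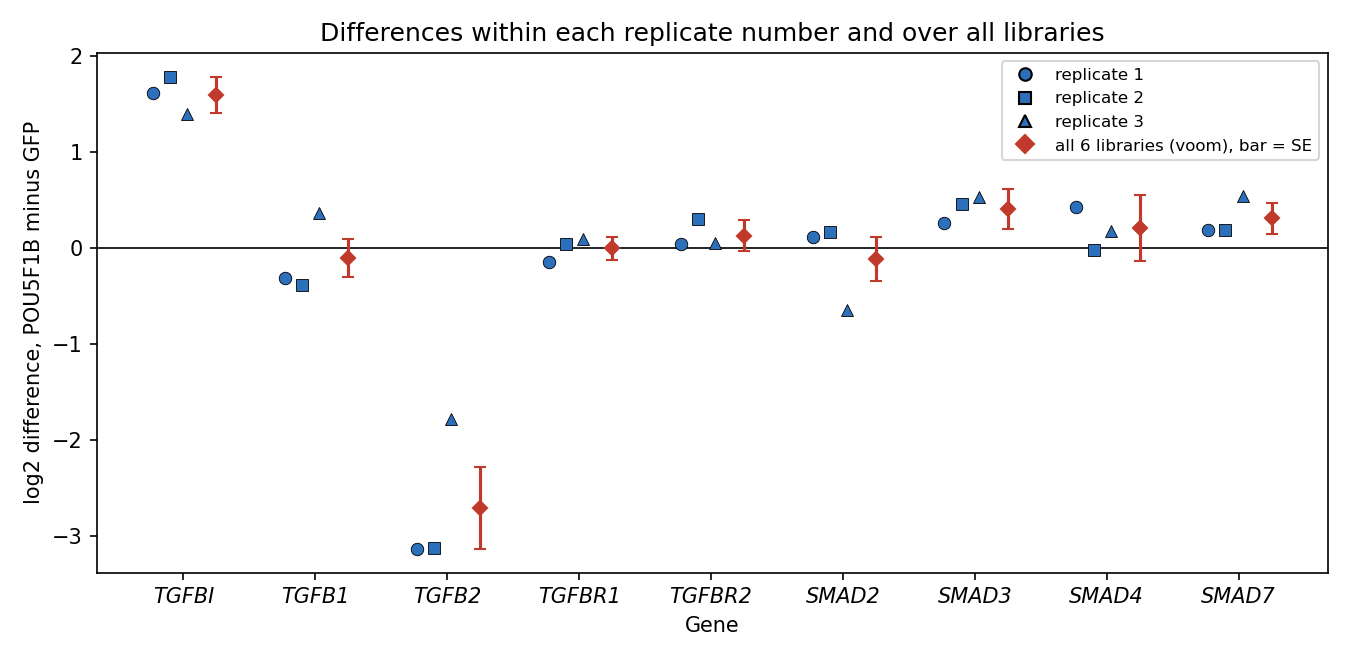
Log2 difference of each member between POU5F1B and GFP libraries of the same replicate number (blue; a symbol for each number) and the log2 fold change over all 6 libraries by limma voom (red, bar = SE). TGFBI lies between 1.40 and 1.79 and TGFB2 between -3.14 and -1.78, while TGFB1 and SMAD2 have replicate 3 on the other side of 0 from replicates 1 and 2.

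To compare levels between members, CPM was divided by the annotated length of each gene, as CPM per kilobase (kb) of the union of its exons. In GFP cells the order of these levels ran from TGFB1 (17.0 ± 3.61) through TGFBI (11.7 ± 1.35), TGFBR1 (10.1 ± 0.789), SMAD3 (8.99 ± 2.04), TGFB2 (8.34 ± 3.34), TGFBR2 (7.47 ± 1.12), SMAD7 (6.23 ± 0.91) and SMAD2 (1.37 ± 0.454) to SMAD4 (0.074 ± 0.0197; CPM per kb, SD, n = 3). Neighbours from TGFBI to SMAD7 overlapped in their ranges, whereas TGFB1 lay above TGFBI, SMAD7 above SMAD2 and SMAD2 above SMAD4 in every GFP library. In POU5F1B cells TGFBI was the highest, at 35.9 ± 7.42 CPM per kb, above every value of TGFB1, which was next at 15.7 ± 2.44. There followed SMAD3 (11.9 ± 2.01), TGFBR1 (10.1 ± 0.535), TGFBR2 (8.14 ± 0.76), SMAD7 (7.66 ± 0.453), SMAD2 (1.22 ± 0.0457), TGFB2 (1.19 ± 0.0956) and SMAD4 (0.0848 ± 0.0153; CPM per kb, SD, n = 3). Here the neighbours TGFB1 and SMAD3, SMAD3 and TGFBR1, TGFBR2 and SMAD7, and SMAD2 and TGFB2 overlapped. TGFB2 was thus number 5 in the order of GFP cells and number 8 in that of POU5F1B cells by this length. Over the longest annotated transcript or the MANE Select transcript it was number 6 in GFP and 8 in POU5F1B cells. The place of TGFBI in GFP cells depends on the length used: over the MANE Select transcript it was 33.3 ± 3.84 CPM per kb against 20.0 ± 4.24 for TGFB1. TGFBI at the top in POU5F1B cells and SMAD4 at the bottom in both groups held for all 3 lengths tried. The low place of SMAD2 rests on its annotated length, 36426 bases for the union of exons and 34626 for the other lengths. Its mean in GFP cells was 49.9 CPM, near the 51.2 CPM of TGFBR2, whose exons cover 6850 bases. The annotation used in the counting may give another length.

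Next, the other genes of the pathway were read in the same fit. Of the 113, 91 were tested, of which 42 had a log2 fold change above 0 and 49 below, and 0 passed the threshold with limma voom (0 with edgeR, 7 with DESeq2). At an unadjusted p under 0.05 there were 8 higher and 13 lower, beside 6.07% and 5.82% of all tested genes. Likewise 8 higher and 13 lower did not overlap between groups, beside 10.2% and 9.24% of all tested genes. The median log2 fold change was -0.02, as over all tested genes, and the median size was 0.35 against 0.23 over all tested genes. In replicates 1 and 2 only, 8 passed as higher and 15 as lower, beside 3.21% and 5.15% of all tested genes.

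The target genes of TGF-beta and the SMADs lay on both sides of 0. Of 29 tested of 30 listed, 16 were above 0 and 13 below, with 6 higher and 7 lower at an unadjusted p under 0.05, where all tested genes gave 6.07% and 5.82%. The median log2 fold change was 0.08, with a median size of 0.69. Within replicates 1 and 2, 3 passed as higher and 8 as lower, where all tested genes gave 3.21% and 5.15%. TAGLN, an actin-binding protein, had 48.0, 50.3 and 45.2 CPM in GFP and 28.9, 27.5 and 23.5 CPM in POU5F1B replicates 1, 2 and 3, a log2 fold change of -0.85 ± 0.14 (SE; voom adjusted p = 0.185). CDKN2B, the cell cycle inhibitor p15 and a well-known SMAD target, had 37.2, 38.4 and 18.4 CPM in GFP and 7.31, 5.19 and 11.9 CPM with POU5F1B, or -1.95 ± 0.42 (SE; voom adjusted p = 0.209). Both were lower in every POU5F1B library than in any GFP library, and the replicate 3 libraries of CDKN2B lay nearest to each other. Restricted to replicates 1 and 2, CDKN2B passed, at -2.61 (voom adjusted p = 1.46e-06), and TAGLN, at -0.81 (voom adjusted p = 0.000291), was short of 2-fold.

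A pair of further targets were chosen after their values were seen. PMEPA1, an inhibitor of the pathway that TGF-beta induces, was at 29.5 to 35.6 CPM in GFP and 31.6 to 37.5 CPM in POU5F1B libraries, or 0.10 ± 0.15 (log2, SE; voom adjusted p = 0.822). CCN2, a matricellular protein, had 42.2, 44.5 and 14.2 CPM in GFP and 10.6, 11.5 and 22.7 CPM with POU5F1B, with a log2 difference of 0.67 within replicate 3 against -1.97 and -1.94 within replicates 1 and 2. PMEPA1 thus overlapped between the groups, and CCN2 changed sign between replicate numbers. Over all libraries CCN2 did not pass, at -1.1 ± 0.54 (log2 fold change, SE; voom adjusted p = 0.475). Without replicate 3, PMEPA1 was at -0.03 (voom adjusted p = 0.865) and CCN2 passed, at -1.98 (voom adjusted p = 1.68e-06).

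Of the targets tied to a mesenchymal state, SNAI1 was above 0 and ZEB1 below, at 1.06 ± 0.30 and -1.66 ± 0.58 (log2 fold change, SE), both also named after their values were seen. Neither passed over all libraries (voom adjusted p = 0.285 and 0.351). Both passed in replicates 1 and 2 only, at 1.32 and -1.13 (voom adjusted p = 0.000921 and 0.0267). In that subset 3.21% of all tested genes passed as higher and 5.15% as lower. COL1A1, a fibrillar collagen chain, had 142, 118 and 16.9 CPM in GFP and 6.76, 5.56 and 9.49 CPM in POU5F1B replicates 1, 2 and 3 (log2 fold change -3.22 ± 1.09, SE; voom adjusted p = 0.340). COL1A1 passed in replicates 1 and 2 only, at -4.39 (voom adjusted p = 1.81e-08). The fibroblast marker list holds COL1A1, which made up most of its sum in the GFP libraries, so the sum is not separate from COL1A1. Its 9 genes summed to 172, 149 and 28.1 CPM in GFP and 13.4 to 23.1 CPM in POU5F1B libraries. LUM, also on the list, had 2.96 CPM in GFP replicate 3, 0.416 CPM in POU5F1B replicate 3 and 0 CPM in the other libraries. PDGFRB, on the same list, had 28.2, 28.7 and 7.22 CPM in GFP and 8.73, 7.69 and 12.5 CPM in POU5F1B replicates 1, 2 and 3. COL1A2 had 1.6 and 1.45 CPM in GFP replicates 1 and 2 and at most 0.185 CPM in the other 4 libraries. COL3A1 and FAP, other defining fibroblast markers, had 0 counts in every library, and DCN had 4 counts in all. All libraries came from the SW480 line, and the cause of these values was not tested.

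**Figure D3:**
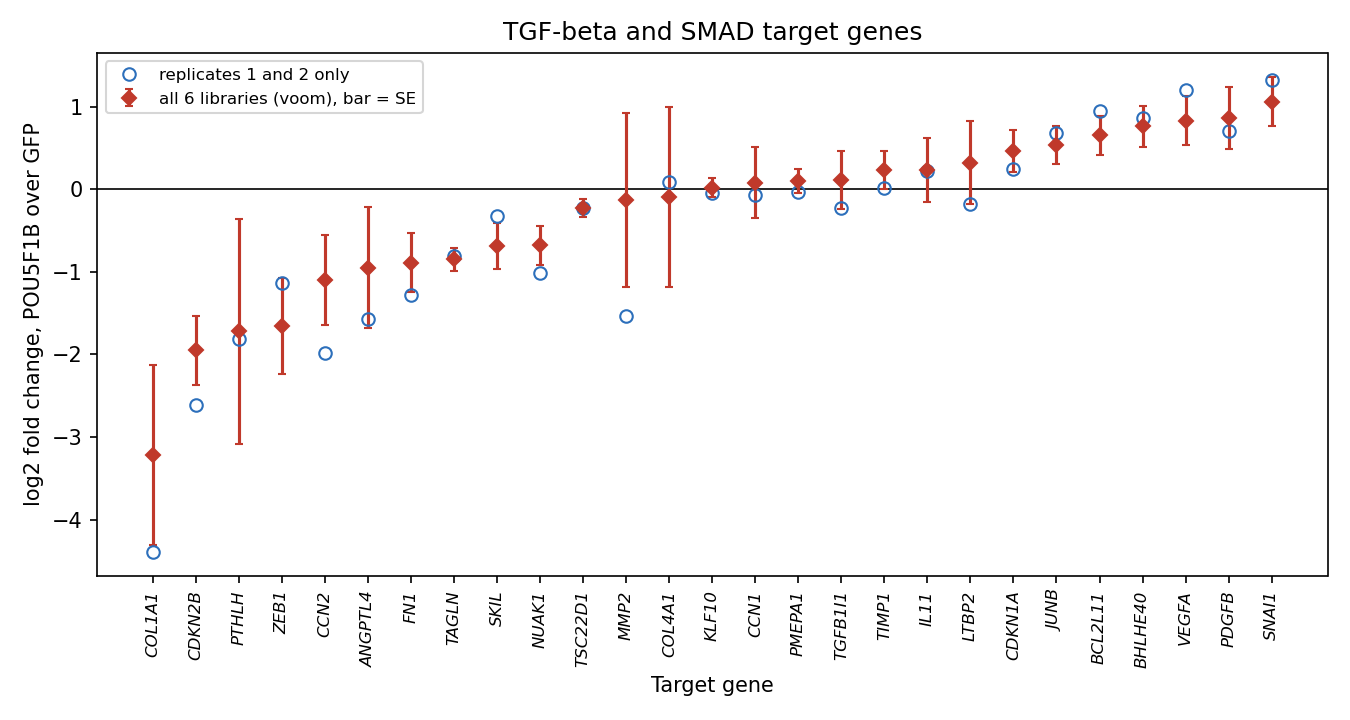
Log2 fold change of 27 tested target genes over all 6 libraries by limma voom (red, bar = SE) and in replicates 1 and 2 only (blue circles), ordered by the fit over all libraries. The values run from -3.22 for COL1A1 to 1.06 for SNAI1, and 14 of the 27 lie above 0.

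Among the other receptors, 6 were tested of 9 listed, 2 above 0 and 4 below. BAMBI, a pseudoreceptor that blocks the type I receptors, had 261, 229 and 209 CPM in GFP and 78.6, 82.8 and 135 CPM in POU5F1B replicates 1, 2 and 3. The groups did not overlap, and the log2 fold change was -1.28 ± 0.22 (SE; voom adjusted p = 0.185), or -1.61 in replicates 1 and 2 only (voom adjusted p = 2.2e-07). TGFBR3, a co-receptor that presents TGFB2, gave -0.63 ± 0.34 and the activin receptor ACVR1B 0.16 ± 0.19 (log2 fold change, SE), and both overlapped between groups. Without replicate 3, TGFBR3 passed, at -1.05 (voom adjusted p = 0.00353), and ACVR1B was at -0.04. BAMBI was the 1 gene of this list with an unadjusted p under 0.05, beside 6.07% of all tested genes higher and 5.82% lower.

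Of 18 tested modulators of receptors and SMADs, 9 were above 0 and 9 below, with a median size of 0.13, smaller than that over all tested genes. SMAD6, the other inhibitory SMAD, had 35, 25 and 11 counts in GFP and 62, 38 and 47 counts in POU5F1B replicates 1, 2 and 3, without overlap (log2 fold change 1.19 ± 0.41, SE; voom adjusted p = 0.346). SKIL, a nuclear repressor of SMADs, was at -0.69 ± 0.28 and the SMAD phosphatase PPM1A at -0.38 ± 0.19 (log2 fold change, SE). Neither passed the threshold in all libraries or in replicates 1 and 2 only, where 0 genes of this list did. Over all tested genes 3.21% passed as higher and 5.15% as lower in replicates 1 and 2 only. SMAD6, SKIL and PPM1A were at 0.81, -0.33 and -0.17 there (log2).

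Other ligands and latent binding proteins held 11 tested genes of 16, 4 above 0 and 7 below. INHBE, an activin subunit, was at 2.59 to 4.09 CPM in GFP and 1.33 to 1.58 CPM in POU5F1B libraries (log2 fold change -1.02 ± 0.31, SE), and GDF15, a stress-induced ligand, at 8.26 to 8.99 and 4.63 to 6.24 CPM (-0.60 ± 0.21, SE). INHBA, another activin subunit, was near 1 CPM in GFP cells (-1.0 ± 0.49, SE). Its groups barely parted: GFP replicate 1 and POU5F1B replicate 3 both had 10 counts, or 0.842 and 0.833 CPM. These 3 ligands did not overlap between groups and lay lower in POU5F1B cells, as did 9.24% of all tested genes. Their voom adjusted p was 0.303, 0.349 and 0.474. Within replicates 1 and 2 they were at -0.76, -0.69 and -1.27 (log2; voom adjusted p = 0.109, 0.0356 and 0.0998), and none passed. INHBB and the latent binding protein LTBP1, named after their values were seen, did not pass over all libraries. There they were at 1.3 ± 0.75 and -0.88 ± 0.58 (log2 fold change, SE; voom adjusted p = 0.533 and 0.59). They passed in replicates 1 and 2 only, at 2.32 and -1.86 (log2), but differed by -0.82 and 1.08 within replicate 3, each with the opposite sign. INHBB had 66.1 CPM in GFP replicate 3 against 9.94 and 5.87 CPM in GFP replicates 1 and 2.

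Genes that release or activate the ligands gave 5 of 10 tested genes above 0 and 5 below, with 0 at an unadjusted p under 0.05 and 0 without overlap. Over all tested genes 6.07% were higher and 5.82% lower at that p, and 10.2% and 9.24% were without overlap. PLAU, the urokinase protease, was at 0.58 ± 0.28, the integrin subunit ITGB8 at 1.37 ± 0.73 and the gelatinase MMP9 at 0.62 ± 0.40 (log2 fold change, SE). ITGB8 had 0.927, 1.14 and 5.22 CPM in GFP and 7.24, 6.02 and 2.25 CPM in POU5F1B replicates 1, 2 and 3. It was higher with POU5F1B in replicates 1 and 2 and lower in replicate 3. Restricted to replicates 1 and 2, ITGB8 passed, at 2.63 (voom adjusted p = 0.000128), while PLAU at 0.8 and MMP9 at 1.0 (log2) did not.

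In the BMP branch, the sister pathway that signals through SMAD1 and SMAD5, 12 genes of 17 were tested, 4 above 0 and 8 below. The ligand BMP4 had 889, 811 and 517 CPM in GFP and 55.1, 48.3 and 316 CPM in POU5F1B replicates 1, 2 and 3. All POU5F1B libraries lay below the GFP libraries, but replicate 3 was far nearer to them than replicates 1 and 2 (log2 fold change -2.93 ± 0.65, SE; voom adjusted p = 0.220). NOG, which encodes the BMP antagonist noggin, was at 0.0762 to 0.522 CPM in GFP and 1.02 to 1.75 CPM in POU5F1B libraries (2.1 ± 0.64, SE), a level near the floor of 3 counts in GFP cells. The BMP target ID3 was at 0.55 ± 0.32 (log2 fold change, SE), also with few counts. BMP4 passed in replicates 1 and 2 only, at -4.05 (voom adjusted p = 1.3e-10), as did NOG, at 2.31 (voom adjusted p = 0.0207), whereas ID3, at 0.77, did not. Of all tested genes, 3.21% passed as higher and 5.15% as lower there. Without overlap over all 6 libraries, 10.2% were higher and 9.24% lower.

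TGFBI protein binds cells through integrins and sits among matrix proteins. Of 13 such receptors and partners 10 were tested, 3 above 0 and 7 below. ITGA1, the alpha-1 subunit of a collagen-binding integrin, had 152, 161 and 111 CPM in GFP and 6.37, 7.69 and 19.2 CPM in POU5F1B replicates 1, 2 and 3, a log2 fold change of -3.83 ± 0.38 (SE; voom adjusted p = 0.122). Its beta partner ITGB1 had 262 to 323 CPM in GFP and 191 to 209 CPM in POU5F1B libraries (-0.51 ± 0.12, SE; voom adjusted p = 0.235). FN1, which encodes fibronectin, had 658, 514 and 238 CPM in GFP and 243, 241 and 217 CPM with POU5F1B (-0.89 ± 0.36, SE; voom adjusted p = 0.401). The ITGA1 and ITGB1 groups did not overlap, whereas FN1 in GFP replicate 3 lay within the POU5F1B range. Of all tested genes, 9.24% were lower without overlap, and 5.15% passed as lower in replicates 1 and 2 only. ITGA1 passed in replicates 1 and 2 only, at -4.5 (voom adjusted p = 3.89e-09), and so did FN1, at -1.28 (voom adjusted p = 3.68e-06), while ITGB1, at -0.40, was short of 2-fold. In the fasciclin family itself, POSTN and STAB2 had 0 counts in all libraries, and STAB1 was near 1 CPM with a log2 fold change of 0.50 ± 0.59 (SE), so TGFBI was the only one of the 4 genes with more than about 2 CPM.

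The genes whose profiles over the 6 libraries lay nearest to that of TGFBI were found from mean-centred log2 CPM, by the root mean square difference. They were ATF3 (0.13), NOD2 (0.14), MT1A (0.15), MT1E (0.16) and the unnamed gene ENSG00000225339 (0.16), on the log2 scale. ATF3, a stress-induced transcription factor, had 19.1, 15.5 and 11.4 CPM in GFP and 48.8, 47.0 and 33.5 CPM in POU5F1B replicates 1, 2 and 3, with the same order of libraries within each group as TGFBI. NOD2, a sensor of bacterial peptidoglycan, had 9.44, 8.46 and 6.87 against 23.0, 23.4 and 17.1 CPM. MT1A and MT1E encode metallothioneins, which are close copies of each other, so counting of uniquely mapped reads can move or lose reads between them. The log2 fold changes of the 5 genes ran from 1.35 to 1.52, and their voom adjusted p from 0.185 to 0.236. The range was 1.36 to 1.67 in replicates 1 and 2 only. They were picked for their likeness to TGFBI, so these values are a description.

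The values of TGFBI and TGFB2 were recomputed under each of 16 other settings. TGFBI was higher in all 16, by 1.51 to 1.79, and TGFB2 lower in all 16, by -3.17 to -2.50 (log2 fold change). Both passed the threshold in the same 4, which were DESeq2, the fit without GFP replicate 3, sample quality weights and the use of replicates 1 and 2 only. The limma voom quality weight of GFP replicate 3 was 0.111, the lowest of the libraries. Their direction thus did not rest on any single library, whereas their call changed when GFP replicate 3 was left out.

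**Figure D4:**
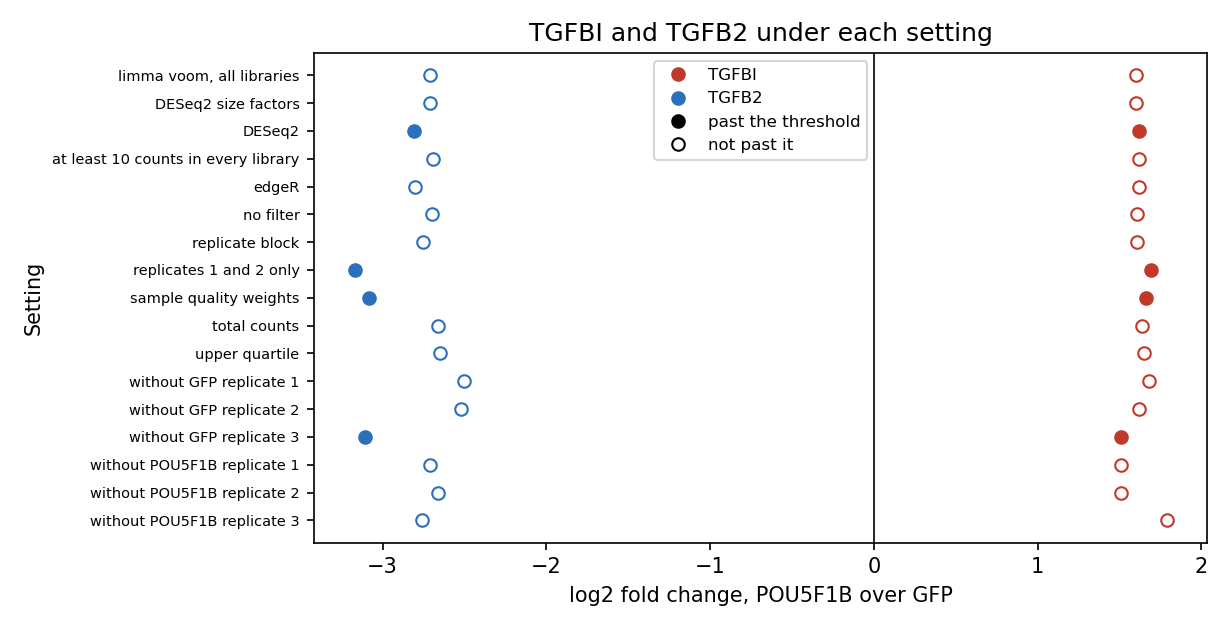
Log2 fold change of TGFBI (red) and TGFB2 (blue) in the fit over all libraries, in the top row, and under each of the 16 other settings. Filled circles are past the threshold of an adjusted p under 0.05 and a 2-fold change, which holds in 4 settings for both genes, and no circle crosses 0.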

How the data were processed

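Read counts per gene were the measurement, in 3 GFP and 3 POU5F1B libraries, grouped and numbered by their titles. The authors deposited raw counts, whole numbers by Ensembl identifier, in a table for each library. The authors mapped reads to hg19 with HISAT2 and counted uniquely mapped reads with featureCounts over an annotation of genes and transposable elements. Uniquely mapped reads lose repeated sequence.

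Genes were kept by filterByExpr of edgeR 4.0.16 (14286 genes), scaled by TMM and tested with voom of limma 3.58.1 in R 4.3.3, the method the study states, with Benjamini-Hochberg adjustment over all genes. The threshold was an adjusted p under 0.05 and over 2-fold. CPM used TMM-scaled library sizes, and log2 CPM a prior count of 2. A floor of 3 counts was used, which covers counting error only. DESeq2 1.42.0, the quasi-likelihood test of edgeR, quality weights, other scaling and filters, a replicate block and left-out libraries were alternatives. The length of the MANE Select transcript was added after the data had been seen. The scripts were tested on simulated counts.

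Members and lists were chosen with earlier results of these data known, and so was the choice of replicates 1 and 2 only. Named were the members, the 3 tested genes of each list with the smallest unadjusted p, the 5 profiles nearest to TGFBI, the 3 tested neighbours on each side of TGFBI and POU5F1B. Others are said to be chosen after their values were seen. GENCODE gave the 1-based coordinates, on GRCh37 (the build of hg19). Promoters are from RefSeq (GRCh38.p14), matched by sequence to GRCh37. Of the listed symbols, CRIPTO and PECAM1 had no match and were left out. Some genes that this rule names are not reported here.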

Additional observations from a re-analysis of the deposited data

How the results depend on the processing

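TGFBI, at 1.60 on the log2 scale and not past the threshold over all libraries, passed in replicates 1 and 2 only (1.69), with sample quality weights (1.66) and with DESeq2 (1.62). Leaving out 1 library at a time gave 1.51 to 1.79, and it passed without GFP replicate 3 (1.51). Its adjusted p ranged from 1.35e-09 to 0.927 over the settings, by DESeq2, edgeR or limma voom. The number of members past the threshold was 0, against 2 in replicates 1 and 2 only, with quality weights and with DESeq2, and 0 to 2 with 1 library left out. Of the 113 other pathway genes 0 passed, against 7 with DESeq2, 1 with no filter (ITGA1), 21 with quality weights, 23 in replicates 1 and 2 only and 0 to 13 with 1 library left out. Over all tested genes 0 passed, against 232, 4, 1077, 1194 and 0 to 595 under the same settings. The highest count with 1 library left out came without GFP replicate 3, and without POU5F1B replicate 3 it was 5. The cause was not tested.

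No label says whether libraries of the same replicate number belong together. Their deviations from the group means had correlations of 0.242, 0.0883 and 0.165 across genes, for numbers 1, 2 and 3. The same was not computed between libraries of unlike number, so these correlations cannot decide the question. Both replicate 3 libraries stood apart in LGR5, with 20.8 CPM in GFP and 6.58 CPM in POU5F1B replicate 3. The other libraries had at most 0.0842 CPM of it. With the replicate number as a block, a paired fit, 1 gene of all tested passed, which was POU5F1B, and 0 members did.

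Values whose sign changed belonged to genes that were past the threshold in no setting. TGFB1 ranged from -0.26 to 0.0479 with 1 library left out. TGFBR1 was 0.0165 with at least 10 counts in every library, 0.00785 with no filter, 0.0363 with total counts and 0.0469 with the upper quartile, and -0.078 to 0.0404 with 1 library left out. SMAD2 was 0.131 in replicates 1 and 2 only and 0.101 with quality weights, and -0.25 to 0.12 with 1 library left out. SMAD4 ranged from -0.0168 to 0.34, ACVR1B from -0.0624 to 0.28 and STAB1 from -0.0235 to 1.13 with 1 library left out, and ACVR1B was -0.0412 in replicates 1 and 2 only, where STAB1 was -0.208, and -0.326 with quality weights. The cause was not tested. Low counts limit SMAD4, NOG, INHBA and STAB1, which had under about 2 CPM in most libraries.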

Other observations

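The tested genes next to TGFBI on chromosome 5 did not share its direction. Before its start lay the solute carrier SLC25A48 (-552.1 kb), the chemokine CXCL14 (-449.7 kb) and the unnamed gene ENSG00000250378 (-216.3 kb), with log2 fold changes of -2.47 ± 0.61, -1.88 ± 0.84 and -4.08 ± 0.95 (SE). ENSG00000250378 had 235, 244 and 61 counts in GFP and 6, 3 and 29 counts in POU5F1B replicates 1, 2 and 3, without overlap. CXCL14 had 198, 216 and 39.1 CPM in GFP and 19.7, 22.1 and 77.6 CPM in POU5F1B replicates 1, 2 and 3, so it was lower with POU5F1B in replicates 1 and 2 and higher in replicate 3. After the start of TGFBI lay SMAD5 (103.9 kb), a transducer of the BMP branch, HNRNPA0 (1725.4 kb) and FAM13B (2023.0 kb), with log2 fold changes of -0.30 ± 0.21, -0.40 ± 0.13 and -0.48 ± 0.22 (SE). All 6 neighbours had values below 0, and none passed the threshold with limma voom, with adjusted p of 0.229 to 0.606. Without replicate 3 the 3 genes before the start passed, at -3.39, -3.32 and -5.56, and the 3 after it, at 0.00, -0.57 and -0.70, did not. Over all tested genes 5.15% passed as lower there.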
